A study of Mus musculus with 8 samples.

Results

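Parathyroid hormone transcripts appeared at a high level in 1 of 8 brachiocephalic artery libraries, and the thyroid genes measured beside it were spread over the libraries. The genes described are 7 of the 49585 in the deposited table: Pth, Gcm2 and Casr of the parathyroid, Chga of neuroendocrine cells, Tg and Tshr of the thyroid follicle, and Calca of the thyroid C cell. They were found by symbol and were selected on their measured values in these libraries, so their levels are given as a description, without a test. The libraries came from the brachiocephalic artery, the first branch of the aortic arch, of ApoE-deficient mice on a high-fat diet that began at 12 weeks of age. In 4 libraries the mice had received a blocking antibody against Dll1, a Notch ligand (clone HMD1-5, 250 micrograms into the peritoneum, 2 times per week). In the other 4 they had received non-immune IgG at an equal dose and schedule. Every library, the IgG ones included, therefore carries the ApoE deficiency and the diet. Nothing in the labels ties a sample to an animal of its own, and the spread between samples may thus be partly technical.

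The parathyroid glands lie in the neck beside or within the thyroid and release parathyroid hormone when blood calcium falls. The calcium-sensing receptor, encoded by Casr, switches that release off, and the transcription factor Gcm2 is needed for the glands to form. Thyroid follicle cells make thyroglobulin (Tg) as the scaffold of thyroid hormone and respond to the pituitary through the receptor Tshr, while C cells between the follicles make calcitonin from Calca. Chga encodes chromogranin A, a protein of secretory granules in parathyroid cells, in many other endocrine cells and in sympathetic neurons. Parathyroid and thymus arise from the same pharyngeal pouch in the embryo.

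RefSeq promoter windows, 250 bases before to 50 bases after the start on build GRCm38.p6, were held for 5 of the 7 genes: Pth, Gcm2, Casr, Chga and Calca. The windows of the 3 parathyroid genes are shown, because those genes were highest in the same library. All are written 5′ to 3′ along the gene, and capitals mark the motif TATAAA.
Pth promoter, chr7:113388524-113388823, minus strand: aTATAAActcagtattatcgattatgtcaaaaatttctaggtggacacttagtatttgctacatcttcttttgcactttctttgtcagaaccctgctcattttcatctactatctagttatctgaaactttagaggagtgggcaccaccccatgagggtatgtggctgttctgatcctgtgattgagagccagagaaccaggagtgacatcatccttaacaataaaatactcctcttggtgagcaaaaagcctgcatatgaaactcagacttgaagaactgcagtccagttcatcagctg
Gcm2 promoter, chr13:41109939-41110238, minus strand: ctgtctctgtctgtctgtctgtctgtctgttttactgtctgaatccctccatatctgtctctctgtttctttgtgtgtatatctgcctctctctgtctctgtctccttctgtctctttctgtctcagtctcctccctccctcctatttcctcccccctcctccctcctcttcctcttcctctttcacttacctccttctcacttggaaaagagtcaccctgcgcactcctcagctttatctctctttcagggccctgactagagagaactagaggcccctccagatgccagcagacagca
Casr promoter, chr16:36562085-36562384, minus strand: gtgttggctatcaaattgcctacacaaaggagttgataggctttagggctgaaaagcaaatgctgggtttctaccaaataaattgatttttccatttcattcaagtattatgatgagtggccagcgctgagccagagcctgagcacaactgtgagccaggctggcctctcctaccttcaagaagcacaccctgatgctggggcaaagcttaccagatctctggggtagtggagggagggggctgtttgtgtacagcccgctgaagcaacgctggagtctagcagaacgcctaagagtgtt
The motifs TATAAA, ATGCGGGT (bound by Gcm factors), CACGTG and TGACGTCA were searched on both strands. TATAAA stood at base 2 of the Pth window and at base 256 of the Chga window, and no other match was found in the 5 windows. Among 32851 RefSeq promoters of the same length, 13.6% held TATAAA, 0.256% held ATGCGGGT, 7.15% held CACGTG and 1.79% held TGACGTCA. The 3 windows shared none of these motifs.

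In the GENCODE M21 annotation of GRCm38, Pth lies on chromosome 7 at 113385580 to 113388570 (minus strand) and Calca on the same chromosome at 114631478 to 114636357 (minus strand). Tshr and Chga lie on chromosome 12, at 91384563 to 91549808 and at 102554969 to 102565028, both on the plus strand. Gcm2 lies on chromosome 13 at 41101427 to 41111035 (minus strand), Tg on chromosome 15 at 66670753 to 66850721 (plus strand) and Casr on chromosome 16 at 36493696 to 36562141 (minus strand). The length behind each value was that of all annotated exons for Pth, Casr, Tg and Calca. For Gcm2, Chga and Tshr it was shorter and inferred from the values, at 2879, 1882 and 4873 bases. Their annotated exons cover 3304, 2756 and 6012 bases, so their read counts below rest on the inferred lengths. Tg shared 112 exon bases with Gm17140, a gene model on the opposite strand, and the other 6 genes shared no exon base with a neighbour.

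The column names carry a number, 076 or 045, whose meaning is not given, and a set here means the 4 libraries with one number. Set 076 held antibody libraries D1IA and D2IA and IgG libraries G1IA and G2IA. Set 045 held a second pair of antibody libraries, also named D1IA and D2IA, and IgG libraries C1IA and C2IA. Nuclear protein-coding genes made up 21.2 to 24.2% of the deposited TPM in set 076 and 0.848 to 3.10% in set 045. Levels are therefore given on the protein-coding scale, which is TPM divided by the summed TPM of nuclear protein-coding genes and written per 1000000. Whole reads could be recovered from the TPM, 11431804 to 13849305 per library. Of these, 7413806 to 8060655 lay on protein-coding genes in set 076, against 662284 to 2724420 in set 045. A gene without a read was therefore less informative in set 045. A count of 0 allows up to 3 reads, a level of 1.72 to 1.97 for Pth in set 076 and of 5.98 to 22.0 in set 045. The 8 artery markers (smooth muscle, endothelium and macrophage) had reads in all 8 libraries. Their summed levels on the protein-coding scale were 8028 to 11340 in the antibody libraries and 4562 to 14996 in the IgG libraries. Lyz2 of macrophages was the largest part of that sum in all 8 libraries, and the smooth muscle markers differed between the sets. Acta2 was at 1927 and 2010.1 in the antibody libraries of set 076, against 2284 and 1898 in its IgG libraries, and at 416 and 530.1 in the antibody libraries of set 045, against 333 and 240 in its IgG libraries.

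Pth, the hormone gene, had 1626 reads in antibody library D1IA of set 076. The other antibody libraries had 0 (D2IA of set 076), 0 (D1IA of set 045) and 5 reads (D2IA of set 045), against 1 read in IgG library G1IA of set 076 and 0 in the other 3 IgG libraries. In deposited TPM this was 200 in D1IA of set 076 and 0.304 in D2IA of set 045, against 0.146 in IgG library G1IA. On the protein-coding scale the level was 932 (95% Poisson interval 887 to 978) in D1IA of set 076 and 17.2 (5.59 to 40.2) in D2IA of set 045, against 0.655 in IgG library G1IA. The intervals cover counting error only. Thus 1 library held 98.1% of the summed Pth level, where Pth stood at rank 157 among protein-coding genes. Against the pooled 7 other libraries, with 6 reads in all, the level in D1IA of set 076 was 932-fold higher (95% interval 427 to 2543). Against the 3 other libraries of its own set, with 1 read in all, the ratio was 4451 (798 to 175892).

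Gcm2, the transcription factor that defines the gland, was found in the same library and in no other. It had 5 reads in antibody library D1IA of set 076, a level of 0.707 (0.229 to 1.65) on the protein-coding scale, and 0 reads in the other 3 antibody libraries and in all 4 IgG libraries. Its interval there met that of the next library, D2IA of set 076 (0 to 0.583), so single libraries were not separated. The lower 95% counting limit of the ratio of D1IA of set 076 to the pooled other 7 libraries was 3.15. Against the pooled other 3 libraries of set 076 that limit was 2.51. In set 045 the floor lay at 1.47 to 5.43, above the level found in D1IA of set 076. At that depth 0 reads in a single library do not exclude a like level in it.

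Casr, the calcium sensor, had reads in set 076 only, where depth on protein-coding genes was greater. It had 44 reads in D1IA and 6 in D2IA among the antibody libraries of set 076, against 14 in G1IA and 6 in G2IA among the IgG libraries. The levels on the protein-coding scale were 3.79 (2.76 to 5.09) and 0.578 (0.212 to 1.26) in the antibody libraries, against 1.38 (0.755 to 2.32) and 0.535 (0.196 to 1.16) in the IgG libraries. D1IA of set 076 was highest and its interval did not meet that of the next library, G1IA, while the other 3 libraries of the set could not be separated. The pooled ratio of D1IA to those 3 libraries was 4.63 (2.79 to 7.84). In set 045, 0 reads allow a Casr level of up to 0.900 to 3.31. Unlike Pth and Gcm2, Casr thus had a low level in libraries with at most 1 Pth read.

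**Figure D1:**
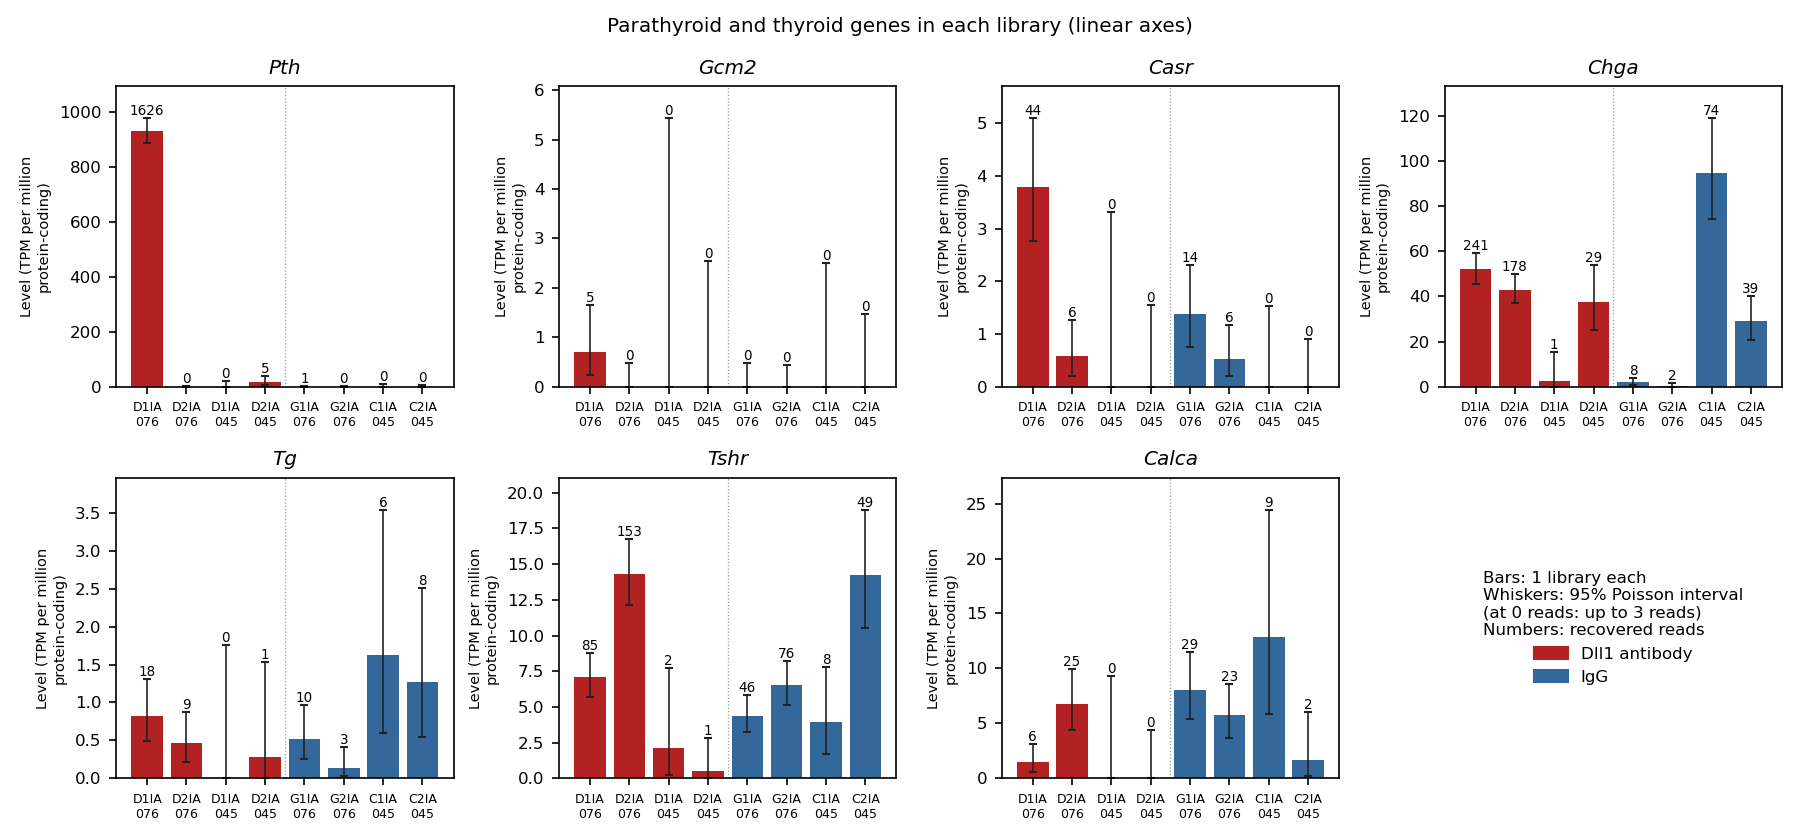
Level of each of the 7 genes in the 4 antibody (red) and 4 IgG (blue) libraries, in TPM per 1000000 of protein-coding genes on linear axes. Bars are single libraries, whiskers are 95% Poisson intervals (at 0 reads, up to the level of 3 reads) and the numbers are recovered reads; Pth stands at 932 in antibody library D1IA of set 076 and at 17.2 or less elsewhere.

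Chga, the secretory granule gene, was spread over both groups. It had 241, 178, 1 and 29 reads in antibody libraries D1IA and D2IA of set 076 and D1IA and D2IA of set 045, against 8, 2, 74 and 39 reads in IgG libraries G1IA, G2IA, C1IA and C2IA. On the protein-coding scale the levels were 52.1, 43.0, 2.77 and 37.7 in the antibody libraries, against 1.98, 0.447, 94.7 and 29.3 in the IgG libraries. The library order began with IgG C1IA, at 36.1% of the summed level, followed by D1IA of set 076, D2IA of set 076, D2IA of set 045 and IgG C2IA, and each neighbour among the last 4 met the next in its interval. In deposited TPM the highest library was D1IA of set 076 instead, at 11.2, so the leading library depended on the scale. The 3 lowest libraries, D1IA of set 045, G1IA and G2IA, lay at 2.77 or less.

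Outside D1IA of set 076, Chga was at 29.3 to 94.7 in the 4 libraries rich in neuron markers and at 0.447 to 2.77 in the other 3. The summed level of 15 peripheral neuron markers (such as Th and Dbh, enzymes of noradrenaline synthesis) was 206, 4268, 286 and 4547 in antibody libraries D1IA and D2IA of set 076 and D1IA and D2IA of set 045, against 390, 121, 12465 and 6445 in IgG libraries G1IA, G2IA, C1IA and C2IA. Per 1000 units of that sum, Chga stood at 253 in D1IA of set 076 and at 8.29 to 10.1 in the other antibody libraries, against 3.69 to 7.60 in the IgG libraries. D1IA of set 076 was thus the library in which Chga was high while the neuron markers were low. Th was at 7.92 and Dbh at 4.99 on the protein-coding scale there, against 984 and 1383 in IgG library C1IA. The part of neurons in the Chga level was not tested.

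**Figure D2:**
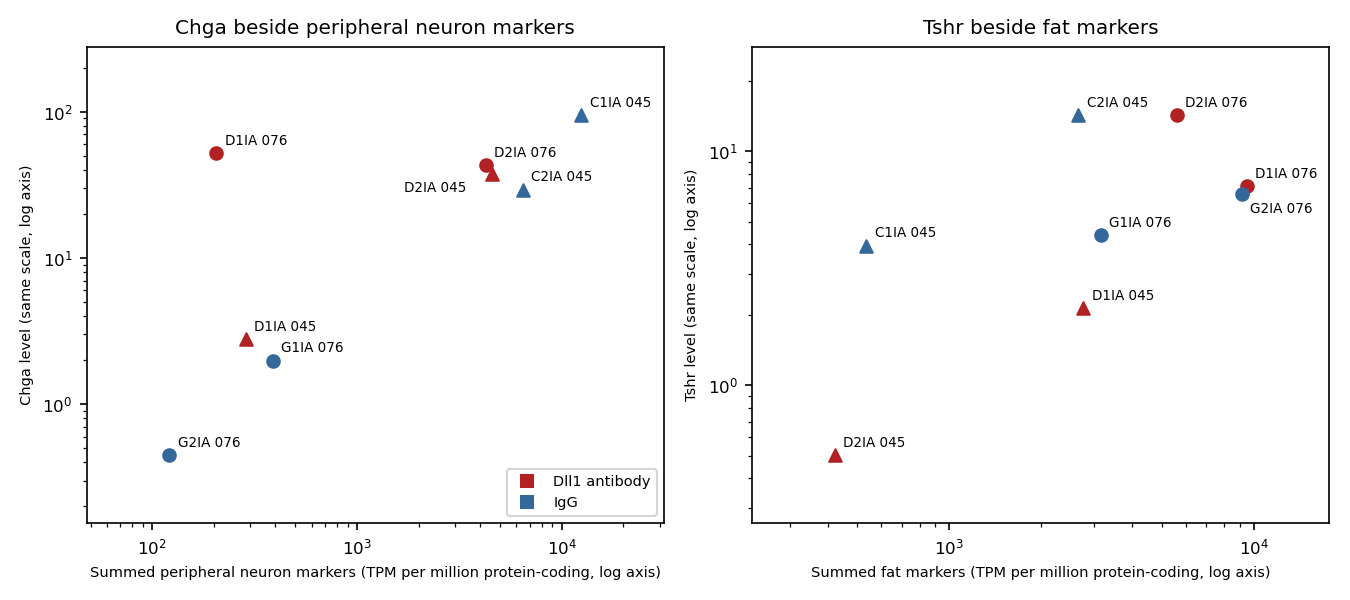
Left, Chga level against the summed level of 15 peripheral neuron markers; right, Tshr level against the summed level of 5 fat markers, both in TPM per 1000000 of protein-coding genes on log axes. Each point is 1 library (circles set 076, triangles set 045, red antibody, blue IgG); D1IA of set 076 has 52.1 for Chga at a neuron sum of 206, apart from the other 7 libraries.

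Tg, the scaffold of thyroid hormone, had at most 18 reads in a library. It had 18, 9, 0 and 1 reads in antibody libraries D1IA and D2IA of set 076 and D1IA and D2IA of set 045, against 10, 3, 6 and 8 reads in IgG libraries G1IA, G2IA, C1IA and C2IA. The levels on the protein-coding scale were 0.825, 0.461, 0 and 0.275 in the antibody libraries, against 0.524, 0.142, 1.63 and 1.27 in the IgG libraries. Both groups overlapped, and in the order of levels every library met the next in its interval. D1IA of set 076, which held nearly all Pth, came after C1IA and C2IA of the IgG group, with a pooled ratio to the other 7 libraries of 1.67 (0.896 to 3.01). Against the other 3 libraries of its own set the ratio was 2.24 (1.13 to 4.37). In deposited TPM it was highest, at 0.177, against 0.117 in IgG library G1IA.

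Tshr, the thyrotropin receptor, had reads in all 8 libraries. It had 85, 153, 2 and 1 reads in antibody libraries D1IA and D2IA of set 076 and D1IA and D2IA of set 045, against 46, 76, 8 and 49 reads in IgG libraries G1IA, G2IA, C1IA and C2IA. The levels on the protein-coding scale were 7.10, 14.3, 2.14 and 0.502 in the antibody libraries, against 4.39, 6.56, 3.95 and 14.2 in the IgG libraries. Antibody library D2IA of set 076 and IgG library C2IA shared the top within their intervals, and the groups overlapped. The ratio of D1IA of set 076 to the other 7 libraries was 0.872 (0.679 to 1.11), and against the other 3 libraries of set 076 it was 0.846 (0.655 to 1.08).

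Tshr is also known from fat cells, and fat markers were present in each library. The summed level of Ucp1, Cidea, Adipoq, Plin1 and Lep was 9503, 5588, 2759 and 422 in antibody libraries D1IA and D2IA of set 076 and D1IA and D2IA of set 045, against 3153, 9167, 536 and 2654 in IgG libraries G1IA, G2IA, C1IA and C2IA. Per 1000 units of that sum, Tshr stood at 0.747 to 2.56 in the antibody libraries, against 0.715 to 7.38 in the IgG libraries. The highest ratios were those of IgG libraries C1IA and C2IA. The part of fat in the Tshr level was not tested.

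Calca, which encodes calcitonin in C cells and the neuropeptide CGRP in sensory neurons through alternative splicing, had its own order of libraries. A value for the whole gene cannot tell these transcripts apart. It had 6, 25, 0 and 0 reads in antibody libraries D1IA and D2IA of set 076 and D1IA and D2IA of set 045, against 29, 23, 9 and 2 reads in IgG libraries G1IA, G2IA, C1IA and C2IA. The levels on the protein-coding scale were 1.45, 6.75, 0 and 0 in the antibody libraries, against 8.01, 5.74, 12.9 and 1.68 in the IgG libraries. D1IA of set 076 was the lowest library of its set, at 0.213 (0.076 to 0.486) times the pooled level of the other 3. The groups overlapped, since antibody library D2IA of set 076 lay above 2 of the 4 IgG libraries.

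By their library profiles, Pth and Gcm2 shared their highest library. Casr shared part of its profile with both the parathyroid and the thyroid genes, and Tg, Tshr and Calca shared little with Pth. The profile overlap of a pair of genes is the sum, over the 8 libraries, of the smaller of their shares of their own summed level. It is a description of 8 libraries that share depth differences between the sets. Pth and Gcm2 overlapped by 98.1%, Pth and Casr by 60.4% and Gcm2 and Casr by 60.3%. Gcm2 had reads in D1IA of set 076 alone, so its overlap with a gene equals that gene's own share there, whatever the count. Pth overlapped with Tg by 18.0%, with Tshr by 14.4% and with Calca by 4.04%. Casr, in turn, overlapped with Calca by 43.6%, with Tshr by 39.3% and with Tg by 38.0%. Chga, although known from parathyroid cells, overlapped with Pth by 21.8%, with Tg by 74.3%, with Calca by 61.2% and with Tshr by 51.3%. Tg and Tshr overlapped by 66.6%, Tg and Calca by 62.3% and Tshr and Calca by 55.1%. In deposited TPM, which gives set 076 more weight, Pth overlapped with Gcm2 by 99.8%, with Casr by 59.3%, with Tg by 35.1%, with Tshr by 19.5% and with Calca by 6.04%. On that scale Casr overlapped more with Tg, at 73.4%, than with Pth, so the place of Casr depended on the scale.

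**Figure D3:**
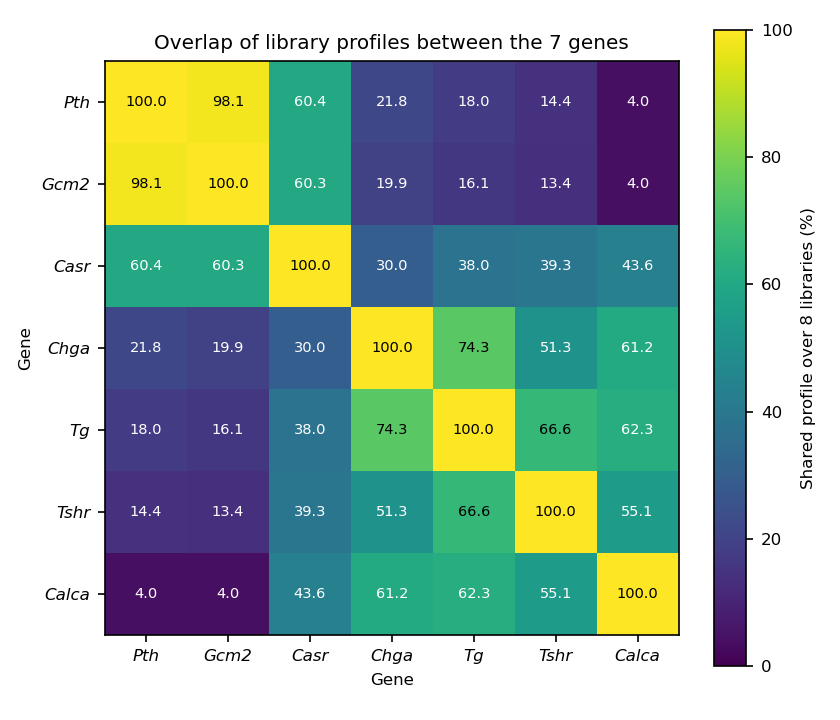
Overlap of the library profiles of each pair of the 7 genes, in percent of the profile shared over 8 libraries on the protein-coding scale. Pth, Gcm2 and Casr share 60.3 to 98.1%, while Pth shares 4.04 to 18.0% and Casr 38.0 to 43.6% with Tg, Tshr and Calca. Gcm2 had reads in a single library, so its overlaps equal the share of the other gene in that library.

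Within D1IA of set 076, the per-length level of Pth was 17.9 times that of Chga, 246 times that of Casr and 1319 times that of Gcm2. At the same ratios, the 5 Pth reads of antibody library D2IA of set 045 would go with 0.135 Casr reads and 0.015 Gcm2 reads, and 0 of each were found. The counts of 0 thus say little about Casr and Gcm2 there at this depth. The same 5 reads would go with 0.741 Chga reads, and 29 were found. In IgG library G1IA of set 076 the single Pth read would go with 0.027 Casr reads, and 14 were found. Casr reads in G1IA and Chga reads in D2IA of set 045 thus exceeded what the ratios to Pth in D1IA of set 076 give.

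The remaining markers of the thyroid follicle had few reads in any library. The thyroid transcription factors Pax8, Nkx2-1 and Foxe1 had 1, 1 and 0 reads in all 8 libraries together, and the single Pax8 read lay in D1IA of set 076. Slc5a5, the iodide transporter, had 3, 32, 4 and 6 reads in antibody libraries D1IA and D2IA of set 076 and D1IA and D2IA of set 045, against 0, 0, 15 and 21 reads in IgG libraries G1IA, G2IA, C1IA and C2IA. The summed level of the 7 follicle markers, Tg and Tshr included, was 5.79 to 19.9 in the antibody libraries and 5.08 to 25.7 in the IgG libraries, with D1IA of set 076 at 8.51. The 4 C cell markers, Calca included, summed to 5.65 to 40.5 in the antibody libraries and 11.0 to 35.1 in the IgG libraries, with D1IA of set 076 at 8.02. The 3 parathyroid markers are the members Pth, Gcm2 and Casr, selected on these values, so their sum mostly restates Pth. It was 936 in D1IA of set 076, of which Pth made up 932, and 17.2 or less in each of the other 7 libraries.

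Markers of further tissues were also highest in D1IA of set 076. All 9 skeletal muscle markers and all 6 thymocyte markers had reads in that library, and likewise in D2IA and IgG library G1IA of set 076. The 9 muscle markers all peaked in D1IA of set 076. They summed to 4954 units of the protein-coding scale in that library and to 5.99 to 391 in the other antibody libraries, against 10.0008 to 115 in the IgG libraries. Of the 6 thymocyte markers, 5 peaked there, and their sum was 223 in that library and 0 to 43.4 in the other antibody libraries, against 0 to 121 in the IgG libraries. Of the 6 cartilage markers, 4 peaked there, with a sum of 291 in that library and 33.5 to 225 in the other antibody libraries, against 28.1 to 277 in the IgG libraries. The fat sum was highest there as well, at 9503, against 9167 in IgG library G2IA, but only 2 of the 5 fat markers peaked there. Ucp1 made up 5106 of the fat sum in D1IA of set 076. The next highest muscle sum, 391, lay in D2IA of set 076, which had 0 Pth reads, and the next highest thymocyte sum, 121, in IgG library G1IA, which had 1. The part of these tissues in the result was not tested.

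Of the 4 thymic epithelium markers (Foxn1, Psmb11, Aire and Ccl25), 2 peaked in D1IA of set 076. These were Foxn1 with 1 read and Psmb11 with 5, but Psmb11 also had 4 reads in IgG library G2IA. The sum of the 4 markers, mostly Ccl25, was 1.83 to 6.71 in the antibody libraries, against 1.81 to 7.96 in the IgG libraries. Among the antibody libraries it was highest in D1IA of set 076. General epithelium markers summed to 12.8 to 54.8 in the antibody libraries and 9.13 to 48.0 in the IgG libraries. Markers of airway and oesophagus epithelium summed to 18.7 to 3216 in the antibody libraries, the highest being D1IA of set 045, against 30.8 to 505 in the IgG libraries. In D1IA of set 045 that sum was mostly Bpifa1, at 1697, and Scgb1a1, at 1511. The keratins Krt5, Krt14, Krt4 and Krt13 had 0 reads there, and 1, 1, 2 and 4 reads in all 8 libraries together.

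**Figure D4:**
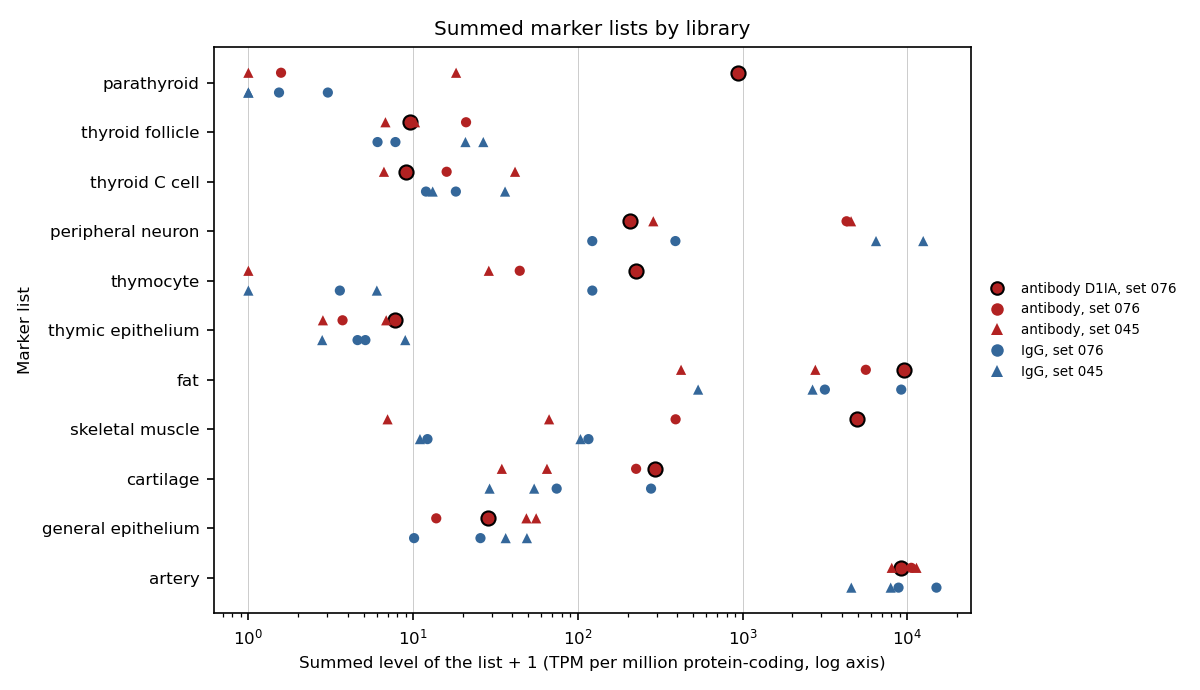
Summed level of each marker list in each library, plus 1, in TPM per 1000000 of protein-coding genes on a log axis; antibody libraries are red, IgG libraries blue, circles set 076 and triangles set 045. The outlined point is antibody library D1IA of set 076. It stands at 936 for parathyroid markers, of which Pth, selected on these values, makes up 932. It stands at 4954 for skeletal muscle markers and lies among the other libraries for thyroid follicle and C cell markers.

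The study compared the antibody with IgG. In limma over 18170 genes with a mean of at least 1 on the protein-coding scale, with set as a term, 0 genes passed an adjusted p of 0.05 (0.0% called), and 278 had an unadjusted p under 0.05 where 908 would fall by chance. Of the 7 genes, 4 passed the filter (Pth, Chga, Tshr and Calca), and none of these was called. Gcm2, Casr and Tg had means under 1.

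Group means of Pth rested on 1 library. On the protein-coding scale Pth averaged 237 ± 463 in the antibody libraries and 0.164 ± 0.328 in the IgG libraries (SD, n = 4 each). Without D1IA of set 076 the antibody mean was 5.74 ± 9.95 (SD, n = 3). The log2 fold change on log2(level + 1), which understates the change of low genes, was 3.33 (SE 2.00), and 1.11 without that library. In bulk tissue, fewer cells of a type and less RNA per cell cannot be told apart.

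For the other 3 genes that passed the filter, the groups overlapped. Chga averaged 33.9 ± 21.6 in the antibody libraries and 31.6 ± 44.1 in the IgG libraries, with a log2 fold change of 1.19 (SE 1.39). Tshr averaged 6.01 ± 6.19 in the antibody libraries and 7.28 ± 4.77 in the IgG libraries, with a log2 fold change of -0.60 (SE 0.70). Calca averaged 2.05 ± 3.21 in the antibody libraries and 7.08 ± 4.67 in the IgG libraries, with a log2 fold change of -1.72 (SE 0.70). All are protein-coding scale means with SD and n = 4 each. Within set 076, D2IA alone of the antibody libraries had a Calca level in the range of the IgG libraries, and in set 045 neither antibody library had a Calca read, against 9 and 2 reads in the IgG libraries.

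Lists of related genes gave no call either, and the share called over all genes was 0.0%. The median log2 fold change of all genes tested was -0.07. Among 11 further genes of parathyroid development and calcium sensing, 10 were tested, with a median of -0.18. Their sum in D1IA of set 076 was the lowest of the 8 libraries, at 200.1, where the other antibody libraries had 307 to 600.4, against 213 to 442 in the IgG libraries. Gata3, a factor of parathyroid development also known from sympathetic neurons, was at 2.86 in D1IA of set 076, against 44.2 in IgG library C1IA. Eya1, a cofactor of pharyngeal pouch development, was at 2.08 and 87.0 in the same 2 libraries. Fgfr1, a receptor of fibroblast growth factors, had a mean of 73.8 over the 8 libraries.

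The thyroid list held 19 further genes, of which 4 were tested, with a median log2 fold change of 0.08. Of these 19, 10 had fewer than 10 reads in all 8 libraries together, Foxe1, Cdh16 and Tff3 among them with 0. Only 1 of the 16 with a read was highest in D1IA of set 076. The transcription factors Hhex and Glis3 had means of 13.5 and 7.31 on the protein-coding scale, and Slc5a5 had a mean of 5.00.

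Of 18 further genes of C cells and neuroendocrine cells, 13 were tested, with a median log2 fold change of -0.26. None of the 18 was highest in D1IA of set 076, and 11 were highest in IgG library C1IA. The granin Chgb, a close relative of Chga, was at 2.38, 57.8, 9.51 and 138 in antibody libraries D1IA and D2IA of set 076 and D1IA and D2IA of set 045, against 4.24, 1.07, 392 and 132 in IgG libraries G1IA, G2IA, C1IA and C2IA. In D1IA of set 076, Chga was thus at 52.1 where Chgb was at 2.38. Scg2, another granin, was at 9.71 in that library and 207 in D2IA of set 076. Ret, the receptor of neurotrophic factors of the GDNF family, was at 3.97 and 105 in the same 2 libraries. Cpe, a carboxypeptidase that trims prohormones, was abundant throughout, at 69.9 to 439 in the antibody libraries and 291 to 511 in the IgG libraries.

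The receptors and targets of these hormones were expressed in the artery samples of both groups. Of 13 genes, 9 were tested, with a median log2 fold change of -0.15, and Cyp24a1 and Calcr had no read. Pth1r, the receptor of parathyroid hormone, was at 22.8, 17.1, 14.3 and 17.6 in antibody libraries D1IA and D2IA of set 076 and D1IA and D2IA of set 045, against 22.4, 16.5, 13.2 and 11.6 in IgG libraries G1IA, G2IA, C1IA and C2IA. Pth1r thus spanned 11.6 to 22.8 over libraries in which Pth spanned 0 to 932. Klf9, a target of thyroid hormone, had a mean of 169, the thyroid hormone receptor Thra of 134 and Calcrl, the receptor subunit for CGRP and adrenomedullin, of 50.4. Dio2, which activates thyroid hormone and is high in brown fat, was at 26.0 to 197 in the antibody libraries and 14.6 to 150 in the IgG libraries, highest in D1IA of set 076.

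Genes with the profiles most like those of the members were listed from 14872 genes with a mean of at least 1 on the protein-coding scale, by profile overlap over the 8 libraries. For Pth, the immune receptor segments Ighv1-52 and Traj51 and the microRNA gene Mir221 shared 98.1% each, with 12, 1 and 3 reads in D1IA of set 076 and none elsewhere. A gene found in that library alone passes the filter through it and overlaps by Pth's own share there. They were followed by Pvalb at 94.2%, a calcium buffer of fast muscle fibres, with a level of 577 in D1IA of set 076. Next came Fitm1 (92.3%), Mylpf (90.8%), Tnnc2 (90.7%), Prss16 (89.9%), Myh4 (88.7%) and Ckm (88.3%). Mylpf, Tnnc2, Myh4 and Ckm are muscle genes, and Prss16 encodes a protease of the thymic cortex. Prss16 was at 17.1 in D1IA of set 076 and at 0 to 1.00 in the other antibody libraries, against 0 to 0.579 in the IgG libraries.

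For Chga, the nearest profiles were those of Camk2a (85.8%), Rbfox1 (85.0%), Rtn2 (84.6%), Ryr2 (83.3%), Rragd (83.1%), Usp13 (83.0%), Eef1a2 (83.0%), Nsg1 (82.8%), Kcnj3 (82.7%) and Usp29 (82.7%). Camk2a and Rbfox1 are known from neurons. For Tshr they were Nudt17 (89.2%), Pram1 (88.7%), Egfros (88.4%), Ffar2 (88.3%), Dnajc12 (88.3%), Lvrn (87.6%), Kcnrg (87.3%), Tpd52l1 (87.3%), Dnase1l2 (87.2%) and Hpdl (86.0%).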

How the data were processed

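Per the labels' protocols, TRIZOL was used for extraction, and strand-keeping libraries were made from 100 ng of total RNA after ribosomal RNA depletion. The values deposited by the authors are TPM per gene, 1 column per library. The aligner and counting tool were not given in the sources used here. The submitters' processing notes list hg19, a human build, but the identifiers in the table are mouse Ensembl ones, so positions come from GENCODE M21 by identifier. Column names give a group and a set, not a numbered sample, so a column counts as an unnumbered replicate in its group.

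TPM was rescaled to nuclear protein-coding genes (21721). Reads were recovered by dividing TPM times exon length by the step that a single read makes in each library. All 25386 genes above 0 gave whole numbers (tolerance 1e-05), 19705 of them with M21 lengths and 5681 with lengths inferred from the values. Exact Poisson intervals (95%) and the floor of 3 reads cover counting error only. limma 3.58.1 in R 4.3.3 was run on log2(level + 1) with set as a term, a trended robust empirical Bayes step, two-sided, with Benjamini-Hochberg adjustment, and was tested on simulated data. Alternatives were no set term, deposited TPM, a pseudocount of 0.1, other filters and leaving out each library. The genes, lists and tests were chosen with earlier results of these data known. Named beside the members were the 10 nearest profiles of Pth and of each member with a read in all 8 libraries, and up to 4 genes per list with the highest mean. Some genes of these lists are not reported here by name.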

Additional observations from a re-analysis of the deposited data

Results flagged for a closer look

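Within a group of 4 libraries, a value was singled out where its gap to the nearest other value, divided by the group's range, exceeded Dixon's critical value of 0.829, which chance passes in about 1 of 20 groups. These genes were chosen on their values, so that rate does not apply to them, and with 3 libraries at 0 the ratio is 1 whatever the fourth holds. On the protein-coding scale this held for Pth in the antibody group, at 932, for Gcm2 in the antibody group, at 0.707, and for Casr in the antibody group, at 3.79, all in D1IA of set 076. It also held for Pth in the IgG group, at 0.655, which is 1 read in G1IA. Gcm2 in the antibody group was 5 reads against 0 in the other 3 libraries.

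The order of the groups for Tshr differed between the sets, on levels whose counting intervals partly met. On log2(level + 1), antibody minus IgG was 0.80 in set 076, where both antibody libraries lay above both IgG libraries, and -2.00 in set 045, where both lay below. In set 076 the interval of D1IA (5.67 to 8.78) met that of G2IA (5.17 to 8.21). In set 045 the antibody libraries had 2 reads and 1 read, and the intervals of both met that of C1IA (1.71 to 7.79). The difference between the sets was not tested.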

How the results depend on the processing

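No paired analysis was possible because the column names carry no replicate number of the labels. The treatment comparison called 0 genes under every alternative except deposited TPM with set as a term, which called 1 gene (Gm22042, lower, limma adjusted p 0.0444). The smallest adjusted p over the fits that left out 1 library was 0.0664, and each of those fits called 0 genes. Of 51 alternative log2 fold changes of Pth, Chga, Tshr and Calca, 49 kept their direction and moved by less than the SD within the groups. That SD is wide where libraries differ much, and for Pth it includes D1IA of set 076. The count therefore does not show that the values were stable. Chga, counted as kept throughout, spanned 0.31 to 2.53. Tshr was -0.60 as reported and spanned -1.06 to 0.0048 over its alternatives, the last without IgG library C2IA of set 045, which turned its direction. Calca reached -3.33 with a pseudocount of 0.1. Pth ranged over 1.11 to 5.06, lowest without antibody library D1IA of set 076. In deposited TPM the share of the highest library was 99.8% for Pth, 44.2% for Chga (then D1IA of set 076) and 43.8% for Tshr. Profile overlaps in deposited TPM, an alternative chosen after seeing the data, raised that of Pth and Tg to 35.1% and that of Casr and Tg to 73.4%. The causes were not tested. Depth on protein-coding genes in set 045 limits what a count of 0 shows there, and Tg and Gcm2 rest on 55 and 5 reads in all.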
